A study of Mus musculus with 6 samples.

Results

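The 33 genes described here encode enzymes that build cholesterol and fatty acids, together with proteins that sense sterols and switch these enzymes on. They were taken by name from a list that applies no threshold to measured values but was drawn up with earlier results of these data known, and all 33 were found among the 55359 annotated genes of the expression tables. They fall into a sterol branch of 18 enzymes, a fatty acid branch of 9 enzymes and a set of 6 regulators and carriers. RNA was sequenced from mouse brain of E18.5 embryos (late gestation): 3 libraries were wild type (WT) and 3 came from PME-1 S156A knock-in embryos. PME-1 is the methylesterase that takes the methyl group off the catalytic subunit of protein phosphatase 2A, and S156A replaces its active-site serine with alanine. Each library came from 3 brains combined before extraction, so the spread between embryos within a pool was not measured. Total RNA was extracted with TRIzol and made into directional MGIEasy libraries. The sources used here do not say whether the knock-in embryos were heterozygous or homozygous, or what sex they were.

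SREBP proteins, encoded by Srebf1 and Srebf2, are transcription factors made as membrane proteins of the endoplasmic reticulum. When sterols are low, the escort protein SCAP carries them to the Golgi, where proteases release the active part. When sterols are high, INSIG proteins hold SCAP back. SREBP-2 mainly drives genes of cholesterol synthesis and uptake, and SREBP-1 mainly drives genes of fatty acid synthesis. The brain makes its own cholesterol, since lipoproteins do not cross the blood-brain barrier, and growing neurons and glia use it for new membrane.

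Ppme1, the gene of PME-1, stood at 92.4, 95.03 and 74.0 TPM in WT and 72.4, 89.0 and 82.7 TPM in S156A (log2 difference -0.09, SE 0.14, limma adjusted p = 0.804), each triplet given in the order of replicates 1 to 3. Gene levels cannot show a codon change, so this does not check the labels. TPM is a gene's share of the library per unit of transcript length, so levels can be compared between genes. The p-value is from limma, a linear model fitted to log2(TPM + 1) in all tested genes, adjusted by Benjamini-Hochberg.

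Most of these genes were lower in S156A brains. The sterol enzymes together stood at 1790, 1846 and 1396 TPM in WT and 764, 1082 and 1001 TPM in S156A. The S156A mean was 56.6% of the WT mean and the groups did not overlap. In RNA from a whole tissue, fewer cells of a type and less RNA per cell cannot be told apart. The 9 fatty acid enzymes summed to 1362, 1435 and 1096 TPM in WT and 895, 1127 and 1004 TPM in S156A, a mean of 77.7% of WT with overlapping groups.

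None of the 33 genes passed the test adjusted over all genes. Limma, run on the 18893 genes whose TPM averaged 1 or more, gave 0 of the 33 members an adjusted p under 0.05. The lowest was 0.0688, for Mvd. Of all tested genes 30 passed, or 0.159%, and 14 of them were lower in S156A, or 0.0741%. At an unadjusted p under 0.05, 23 of the 33 members were lower and 0 were higher in S156A, against 5.5% lower and 8.41% higher among all tested genes. All 3 S156A libraries lay below all 3 WT libraries for 22 of the 33, against 7.05% of all tested genes. Scaling the libraries by a trimmed mean of M values changed the background: 75 genes passed, 58 of them lower, in place of 14 lower of 30, and 8.72% of genes were lower at an unadjusted p under 0.05. Under that scaling 25 members were lower at that level.

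Expressed per branch, 15 of the 18 sterol enzymes, 4 of the 9 fatty acid enzymes and 4 of the 6 regulators were lower at an unadjusted p under 0.05. The median log2 difference between S156A and WT was -0.82 for the sterol branch, -0.33 for the fatty acid branch and -0.39 for the regulators, beside 0.09 for all tested genes. The sterol count was 12 without WT replicate 1 or WT replicate 2 and 14 to 16 without any other single library. The fatty acid count was 2 without WT replicate 1, WT replicate 2, S156A replicate 1 or S156A replicate 3. The regulator count was 2 without WT replicate 1 or S156A replicate 3, and 1 without WT replicate 2 or S156A replicate 1. With single libraries left out, 3.4% to 6.58% of all tested genes were lower. A difference between the branches was not tested.

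**Figure D1:**
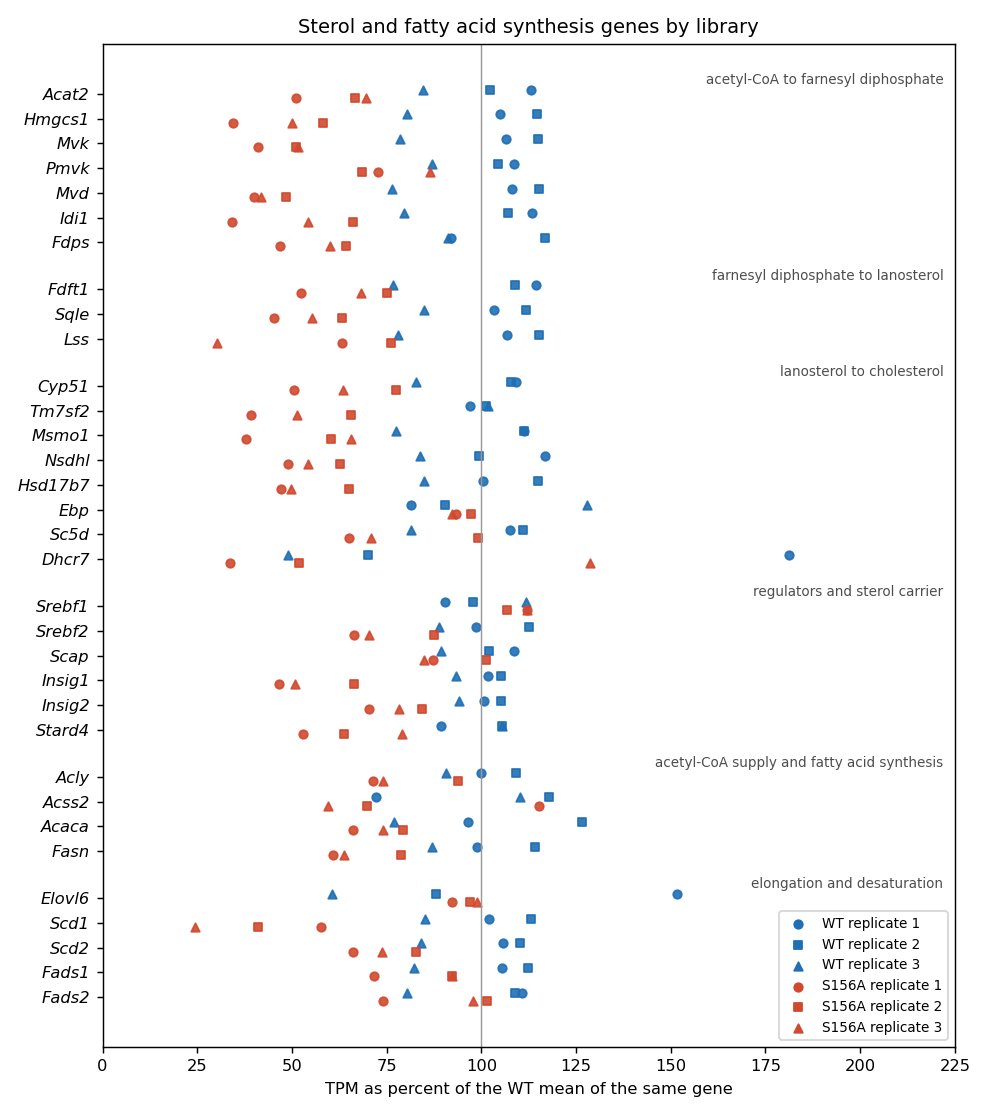
TPM of each of the 33 genes in each library (x axis, as percent of the WT mean of that gene; genes on the y axis in pathway order; blue WT, red S156A, marker shape for the replicate number). The sterol enzymes from Acat2 to Hsd17b7 show S156A points left of all WT points, while Ebp, Srebf1 and Elovl6 overlap around 100%.

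The promoter sequences were read for letters that SREBP and its partner factors bind. RefSeq windows of 300 bases on GRCm38.p6, from 250 bases before to 50 bases after the gene start, were found for 26 of the 33 genes. These 26 genes had 34 windows, and a gene was counted for a motif if any of its windows held it. Of the 8 genes picked for display by their p within each pathway step and among all members, Mvd, Tm7sf2, Insig1, Fasn and Mvk had a window, and Sqle, Scd1 and Fdps did not. Hmgcs1 was added after its motif was seen. Each is shown 5′ to 3′ on the strand of the gene, and capitals mark CCAAT on either strand (ATTGG on the other) and the sterol response element letters TCACNCCAC or their last 8, CACNCCAC.
Hmgcs1: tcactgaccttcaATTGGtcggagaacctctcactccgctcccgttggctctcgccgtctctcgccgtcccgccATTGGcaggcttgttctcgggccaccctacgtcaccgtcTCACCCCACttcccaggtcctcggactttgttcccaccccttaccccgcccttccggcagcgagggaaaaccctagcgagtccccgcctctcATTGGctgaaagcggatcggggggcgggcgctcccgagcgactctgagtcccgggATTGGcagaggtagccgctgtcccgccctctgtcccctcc
Mvk: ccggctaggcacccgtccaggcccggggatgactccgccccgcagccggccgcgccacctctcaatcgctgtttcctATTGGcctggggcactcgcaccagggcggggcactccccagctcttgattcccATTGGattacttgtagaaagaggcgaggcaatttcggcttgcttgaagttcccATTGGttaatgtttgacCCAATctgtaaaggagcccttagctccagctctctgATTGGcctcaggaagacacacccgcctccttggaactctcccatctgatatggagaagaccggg
Mvd: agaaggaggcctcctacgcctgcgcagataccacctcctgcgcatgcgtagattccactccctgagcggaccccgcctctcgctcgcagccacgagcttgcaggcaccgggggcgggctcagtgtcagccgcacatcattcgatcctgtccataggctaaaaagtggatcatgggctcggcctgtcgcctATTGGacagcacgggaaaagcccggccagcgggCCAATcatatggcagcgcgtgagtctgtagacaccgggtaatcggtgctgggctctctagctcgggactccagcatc
Tm7sf2: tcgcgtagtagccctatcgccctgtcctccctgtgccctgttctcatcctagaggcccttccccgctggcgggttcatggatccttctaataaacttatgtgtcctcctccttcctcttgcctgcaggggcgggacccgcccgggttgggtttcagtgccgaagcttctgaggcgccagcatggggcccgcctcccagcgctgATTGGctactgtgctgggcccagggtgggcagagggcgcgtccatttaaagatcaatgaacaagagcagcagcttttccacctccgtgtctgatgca
Insig1: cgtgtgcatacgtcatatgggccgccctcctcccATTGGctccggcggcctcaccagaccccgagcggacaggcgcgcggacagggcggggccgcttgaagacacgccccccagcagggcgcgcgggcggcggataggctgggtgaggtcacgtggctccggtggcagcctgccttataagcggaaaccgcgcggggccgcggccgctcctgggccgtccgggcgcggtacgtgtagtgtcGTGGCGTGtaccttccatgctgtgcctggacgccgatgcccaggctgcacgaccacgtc
Fasn: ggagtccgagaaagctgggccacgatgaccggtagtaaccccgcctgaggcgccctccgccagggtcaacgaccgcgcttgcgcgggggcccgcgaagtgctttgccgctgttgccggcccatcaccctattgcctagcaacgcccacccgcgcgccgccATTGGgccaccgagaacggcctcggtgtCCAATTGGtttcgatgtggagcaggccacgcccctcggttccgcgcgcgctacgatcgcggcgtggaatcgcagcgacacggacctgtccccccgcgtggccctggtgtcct
The windows lie at chr13:119690101-119690400 (plus strand), chr5:114444019-114444318 (plus), chr8:122443373-122443672 (minus), chr19:6067801-6068100 (minus), chr5:28071162-28071461 (plus) and chr11:120824498-120824797 (minus).

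CCAAT, the core bound by the factor NF-Y that acts with SREBP at many sterol genes, was present in all 6 windows shown. Counted by gene, it occurred in 14 of the 15 sterol enzymes with a window (93.3%, Acat2 being the exception). It occurred in 4 of 5 such regulators and in 3 of 6 such fatty acid enzymes, against 42.5% of the 12077 tested genes that have a window. GGGCGG, the GC box bound by SP1, was in 14 of 15 sterol enzymes, 5 of 5 regulators and 3 of 6 fatty acid enzymes with a window, against 66.7% of those tested genes. The 9 letters TCACNCCAC were found in 1 of the 26, Hmgcs1, starting 137 bases before its gene start, against 1.45% of tested genes. The shorter CACNCCAC was found in 3 of the 26, Hmgcs1, Acat2 and Insig1, against 7.78%. TCACNTGA, a second form that SREBP can bind, was found in Insig2 alone, against 4.6%. Both strands were searched, and each TCACNCCAC match also holds a CACNCCAC match. A match describes these letters in this window and not a bound site. Ebp, Sc5d, Dhcr7, Srebf1, Acly and Acss2, whose levels overlapped between the genotypes, also hold CCAAT and GGGCGG.

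The first 7 enzymes act on the path from acetyl-CoA through mevalonate to farnesyl diphosphate, the branch point to sterols and to other isoprenoids. The list does not hold every step of the sterol path. All 7 had S156A libraries below WT libraries without overlap (7.05% of all tested genes did), with log2 differences from -1.16 to -0.39. Mvd (ENSMUSG00000006517.6, chromosome 8, 123160340 to 123170161 in the files' coordinates) makes isopentenyl diphosphate, the isoprene unit, and stood at 71.9, 76.6 and 50.9 TPM in WT and 26.6, 32.1 and 27.8 TPM in S156A (log2 difference -1.16, SE 0.18, limma adjusted p = 0.0688). Mvk, mevalonate kinase, stood at 72.3, 77.9 and 53.2 TPM in WT and 27.8, 34.6 and 34.9 TPM in S156A (log2 difference -1.03, SE 0.17, limma adjusted p = 0.0801). Both enzymes had S156A values under 36 TPM in every library and WT values over 50 TPM.

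Hmgcs1 (ENSMUSG00000093930.3, chromosome 13, 120151915 to 120169796), the synthase that makes HMG-CoA, was the most abundant sterol enzyme, at 408, 446 and 312 TPM in WT and 134, 227 and 194 TPM in S156A (log2 difference -1.08, SE 0.22, limma adjusted p = 0.113). Acat2, the cytosolic thiolase of the first step, was at 190.5, 172 and 142 TPM in WT and 86.2, 112 and 117 TPM in S156A (log2 difference -0.68, SE 0.16, limma adjusted p = 0.167). In both genes S156A replicate 1 was the lowest of the 6 libraries. The assembled locus of Acat2 also covers its near-identical neighbour Acat3, so how reads were split between them is uncertain.

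Idi1, the isomerase of the isoprene unit, was at 46.3, 43.8 and 32.5 TPM in WT and 13.97, 27.0 and 22.2 TPM in S156A (log2 difference -0.96, SE 0.25, limma adjusted p = 0.2). Its processed copy Idi1-ps1 had a mean of 6.62 TPM, so some reads may be shared. Fdps, farnesyl diphosphate synthase, was at 200, 254 and 198 TPM in WT and 102, 139.7 and 131 TPM in S156A (log2 difference -0.81, SE 0.16, limma adjusted p = 0.106). Pmvk, phosphomevalonate kinase, was at 84.5, 81.3 and 67.7 TPM in WT and 56.7, 53.3 and 67.2 TPM in S156A, where S156A replicate 3 came within 1 TPM of WT replicate 3 (log2 difference -0.39, SE 0.14, limma adjusted p = 0.286). Pmvk thus showed the smallest difference of these steps.

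Fdft1, Sqle and Lss commit farnesyl diphosphate to sterols and close the ring. Sqle, squalene epoxidase, a rate-limiting step, was at 147, 159 and 121 TPM in WT and 64.4, 90.0 and 78.5 TPM in S156A (log2 difference -0.87, SE 0.16, limma adjusted p = 0.0939). Fdft1, squalene synthase, was at 131, 124 and 87.9 TPM in WT and 60.0, 86.0 and 77.9 TPM in S156A (log2 difference -0.60, SE 0.20, limma adjusted p = 0.26). Fdft1 groups were separated by less than 2 TPM, between WT replicate 3 and S156A replicate 2. Fdft1 overlaps Ctsb, a gene of the other strand. The sources used here do not say if the quantification took strand into account, so reads of Fdft1 and Ctsb may not be told apart, and likewise for Mvd with Galnt2l and Cyp51 with Akap9. In all, 8 members overlap a gene of the other strand with a mean of at least 1 TPM. The others are Hmgcs1, Srebf1, Scap, Insig2 and Acss2. Lss, which folds epoxidised squalene into lanosterol, was at 39.9, 43.2 and 29.2 TPM in WT and 23.7, 28.5 and 11.3 TPM in S156A (log2 difference -0.87, SE 0.33, limma adjusted p = 0.322). S156A replicate 3 was the lowest of the 6 libraries, and without it the log2 difference of Lss was -0.49, no longer under an unadjusted p of 0.05.

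After lanosterol, 8 of the listed enzymes help to trim and rearrange the molecule to cholesterol. Of these, 5 had S156A values below WT values without overlap, against 7.05% of all tested genes. Cyp51, the demethylase that starts this stretch, was at 99.5, 98.3 and 75.5 TPM in WT and 46.0, 70.6 and 57.7 TPM in S156A (log2 difference -0.65, SE 0.18, limma adjusted p = 0.213). Msmo1, the oxidase that removes further methyl groups, was at 78.2, 78.2 and 54.5 TPM in WT and 26.6, 42.4 and 46.1 TPM in S156A (log2 difference -0.88, SE 0.24, limma adjusted p = 0.201). Nsdhl, the decarboxylating dehydrogenase of the same step, was at 44.5, 37.9 and 31.9 TPM in WT and 18.6, 23.8 and 20.6 TPM in S156A (log2 difference -0.82, SE 0.16, limma adjusted p = 0.109). For these 3 genes S156A replicate 1 was the lowest library and WT replicate 3 the lowest WT library.

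Hsd17b7, the ketoreductase that completes the demethylation, was at 13.7, 15.7 and 11.6 TPM in WT and 6.46, 8.91 and 6.79 TPM in S156A (log2 difference -0.81, SE 0.20, limma adjusted p = 0.177). Its annotated row held 76.9% and 82.5% of the assembled locus in S156A replicates 1 and 3, and 92.0% to 100% elsewhere. By assembled locus the log2 difference of Hsd17b7 was -0.65 (limma adjusted p = 0.2). Tm7sf2, a sterol reductase, was at 63.6, 66.5 and 66.7 TPM in WT and 25.6, 43.0 and 33.7 TPM in S156A (log2 difference -0.95, SE 0.18, limma adjusted p = 0.0983), with the tightest WT values of the branch relative to their mean. Tm7sf2 overlaps Vps51 on the same strand, and the assembled locus there spans Vps51, Zfpl1 and Gm28374, so its value is less certain.

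Ebp, the sterol isomerase, differed least of the sterol branch, at 12.4, 13.7 and 19.4 TPM in WT and 14.2, 14.8 and 14.01 TPM in S156A (log2 difference -0.06, SE 0.19, limma adjusted p = 0.926, 95% interval -0.51 to 0.39). Sc5d, the desaturase that follows, was at 36.4, 37.5 and 27.6 TPM in WT and 22.01, 33.5 and 23.99 TPM in S156A (log2 difference -0.35, SE 0.20, limma adjusted p = 0.477). In both the groups overlapped. Dhcr7 (ENSMUSG00000058454.16, chromosome 7, 143376882 to 143402147), the reductase of the last step, had the widest spread of all 33 genes in its log2 difference, at 51.0, 19.7 and 13.8 TPM in WT and 9.48, 14.6 and 36.2 TPM in S156A (log2 difference -0.46, SE 0.58, limma adjusted p = 0.77). WT replicate 1 and S156A replicate 3 stood apart from the other libraries.

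The deposited tables hold a second value for each gene, in rows for loci that StringTie assembled from the reads. For Dhcr7 the assembled locus stood at 62.5, 69.1 and 45.7 TPM in WT and 24.7, 49.96 and 37.3 TPM in S156A. Its annotated row held 81.6% and 97.0% of that in WT replicate 1 and S156A replicate 3 and 28.5% to 38.4% in the other libraries. With the assembled value the log2 difference was -0.68, at an adjusted p of 0.333 in limma. Lss showed a similar gap in S156A replicate 3, with 66.6% of the assembled locus in the annotated row against 85.4% to 99.1% elsewhere. For 24 of the 33 genes the annotated row held between 80% and its inverse, 125%, of the assembled loci in every library.

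Put in place of the annotated rows, an alternative chosen after the values were seen, the assembled loci gave 24 members lower at an unadjusted p under 0.05 (5.5% of all tested genes were), 15 of them sterol enzymes, 6 fatty acid enzymes and 3 regulators. Of the 33 genes Mvk alone then passed over all genes (log2 difference -1.12, limma adjusted p = 0.0432), among 34 genes in all. Every S156A locus lay below every WT locus for 23 of the 33 members. By annotated rows it was 22 of 33, against 7.05% of all tested genes. That share was not computed for assembled loci. Tm7sf2 stood at a log2 difference of -0.22 (adjusted p = 0.794), in the locus that also holds its neighbours.

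**Figure D2:**
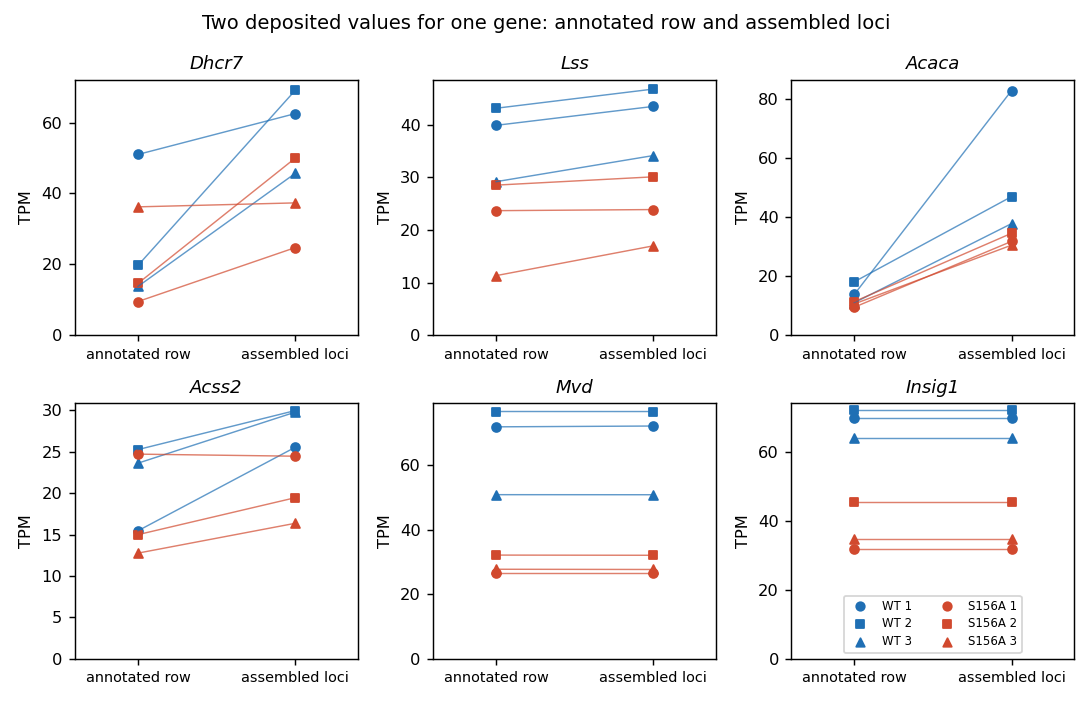
TPM of 6 genes in each library (y axis) by annotated row and by assembled loci, joined per library (blue WT, red S156A, marker shape for the replicate number). Mvd and Insig1 keep their values, while the lines of Dhcr7 cross, with an annotated row that held from 28.5% to 97.0% of the assembled locus.

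Among the regulators, 4 of 6 had every S156A library below every WT library, against 7.05% of all tested genes. Insig1 (ENSMUSG00000045294.12, chromosome 5, 28276361 to 28283660), itself a target of SREBP and the retention protein that closes the loop, was at 69.9, 72.2 and 64.1 TPM in WT and 32.0, 45.7 and 34.9 TPM in S156A (log2 difference -0.87, SE 0.15, limma adjusted p = 0.0828). Insig2, its relative, was at 28.1, 29.4 and 26.3 TPM in WT and 19.6, 23.6 and 21.8 TPM in S156A (log2 difference -0.35, SE 0.13, limma adjusted p = 0.303). Insig1 in S156A was at 54.6% of WT and Insig2 at 77.6%. The ratio of Insig1 to Insig2 was 2.49, 2.46 and 2.44 in WT and 1.63, 1.94 and 1.60 in S156A (exact permutation p = 0.1, two-sided, the smallest that 3 against 3 libraries allow; adjusted p = 0.2 over 4 ratios).

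Srebf2 was at 149.7, 171 and 134.7 TPM in WT and 101, 133 and 107 TPM in S156A (log2 difference -0.42, SE 0.14, limma adjusted p = 0.282). Srebf1, by contrast, was at 37.0, 40.0 and 45.7 TPM in WT and 45.8, 43.6 and 45.8 TPM in S156A (log2 difference 0.14, SE 0.12, limma adjusted p = 0.629), with overlapping groups. The ratio of Srebf2 to Srebf1 was 4.05, 4.28 and 2.95 in WT and 2.202, 3.05 and 2.34 in S156A (exact permutation p = 0.2, two-sided; adjusted p = 0.2). Gene-level TPM does not separate the SREBP-1a and SREBP-1c transcripts.

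Scap, the escort protein gene, was at 73.2, 68.7 and 60.3 TPM in WT and 58.8, 68.2 and 57.2 TPM in S156A (log2 difference -0.13, SE 0.12, limma adjusted p = 0.67), and its groups overlapped. Stard4, which encodes a soluble sterol carrier, was at 13.4, 15.8 and 15.8 TPM in WT and 7.93, 9.54 and 11.9 TPM in S156A (log2 difference -0.58, SE 0.19, limma adjusted p = 0.264), with every S156A library below the WT libraries. Insig1 was thus the regulator with the largest difference in size.

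**Figure D3:**
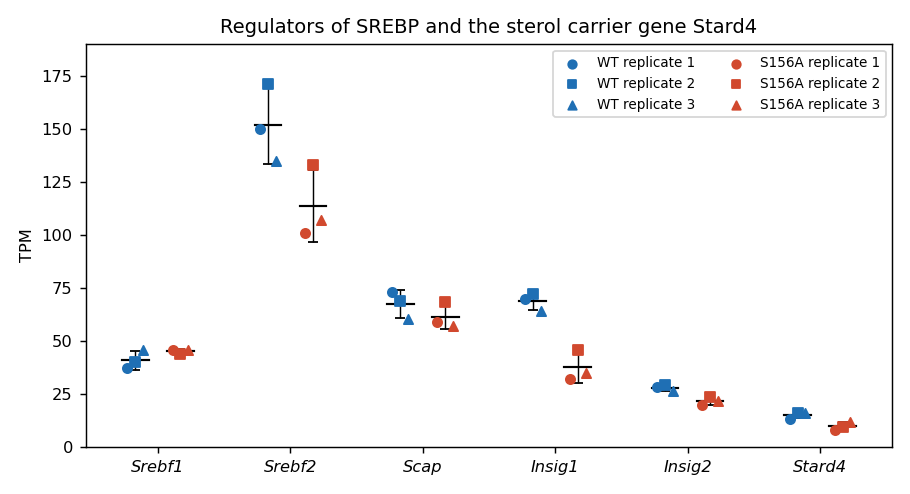
TPM (y axis) of the 6 regulator and carrier genes in each library, with the mean (bar) and SD (whiskers, n = 3) per genotype (blue WT, red S156A). Insig1 occupies separate ranges, 64.1 to 72.2 TPM in WT and 32.0 to 45.7 TPM in S156A, while Srebf1 and Scap overlap.

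In the fatty acid branch, Acly and Acss2 supply acetyl-CoA, Acaca makes malonyl-CoA and Fasn, fatty acid synthase, builds palmitate. Fasn was at 197, 228 and 174 TPM in WT and 121, 157 and 127 TPM in S156A (log2 difference -0.56, SE 0.15, limma adjusted p = 0.197), without overlap. Acly was at 165, 180.3 and 149.7 TPM in WT and 118, 155 and 122 TPM in S156A (log2 difference -0.33, SE 0.14, limma adjusted p = 0.351), where S156A replicate 2 lay above WT replicate 3. Acaca was at 13.8, 18.1 and 11 TPM in WT and 9.47, 11.4 and 10.6 TPM in S156A (log2 difference -0.39, SE 0.21, limma adjusted p = 0.447), and Acss2 at 15.5, 25.3 and 23.6 TPM in WT and 24.7, 15.0 and 12.8 TPM in S156A (log2 difference -0.30, SE 0.28, limma adjusted p = 0.672). For Acaca and Acss2 the annotated row held as little as 16.6% and 60.5% of the assembled loci in WT replicate 1. By assembled loci both had every S156A library below every WT library, with log2 differences of -0.70 and -0.50 (limma adjusted p = 0.326 and 0.288). Acaca then stood at 83.0, 47.0 and 37.85 TPM in WT and 31.8, 34.6 and 30.5 TPM in S156A. WT replicate 1 thus lay far above the other WT libraries.

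The desaturase genes differed in how far S156A lay below WT. Scd1 (ENSMUSG00000037071.4, chromosome 19, 44382894 to 44396318), one of the stearoyl-CoA desaturases that make monounsaturated fatty acids, was at 22.4, 24.9 and 18.7 TPM in WT and 12.7, 9.04 and 5.36 TPM in S156A (log2 difference -1.26, SE 0.29, limma adjusted p = 0.15), the largest difference of the 33 genes. Scd2, the main form of the developing brain, was at 540.2, 563 and 429 TPM in WT and 338, 423 and 377 TPM in S156A (log2 difference -0.43, SE 0.15, limma adjusted p = 0.283) and was the most abundant of the 33 genes. Scd2 exceeded Scd1 by 22.7 to 24.1 times in WT and by 26.6, 46.8 and 70.2 times in S156A (exact permutation p = 0.1, two-sided; adjusted p = 0.2).

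Elovl6, which lengthens palmitate, was at 40.5, 23.5 and 16.2 TPM in WT and 24.7, 25.9 and 26.4 TPM in S156A (log2 difference 0.04, SE 0.30, limma adjusted p = 0.969). By annotated rows, WT replicate 1 and WT replicate 3 enclosed all S156A values. The annotated row held 47.8% of the assembled loci in WT replicate 3 and 62.3% in S156A replicate 2. By assembled loci Elovl6 stood at 40.2, 21.55 and 33.8 TPM in WT and 26.5, 41.7 and 29.4 TPM in S156A. S156A replicate 2 was then the highest library. Fads1 and Fads2, the desaturases of polyunsaturated fatty acids, had log2 differences of -0.22 (limma adjusted p = 0.579) and -0.13 (adjusted p = 0.784), from 129 ± 20.4 TPM in WT and 110.0 ± 15.3 TPM in S156A for Fads1 and 209 ± 35.4 TPM in WT and 190.4 ± 31.1 TPM in S156A for Fads2 (mean ± SD, n = 3 each). Both overlapped between groups. The log2 difference of Fads1 ran from -0.36 to -0.10 with single libraries left out, and the log2 difference of Acss2 from -0.57 to -0.12.

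**Figure D4:**
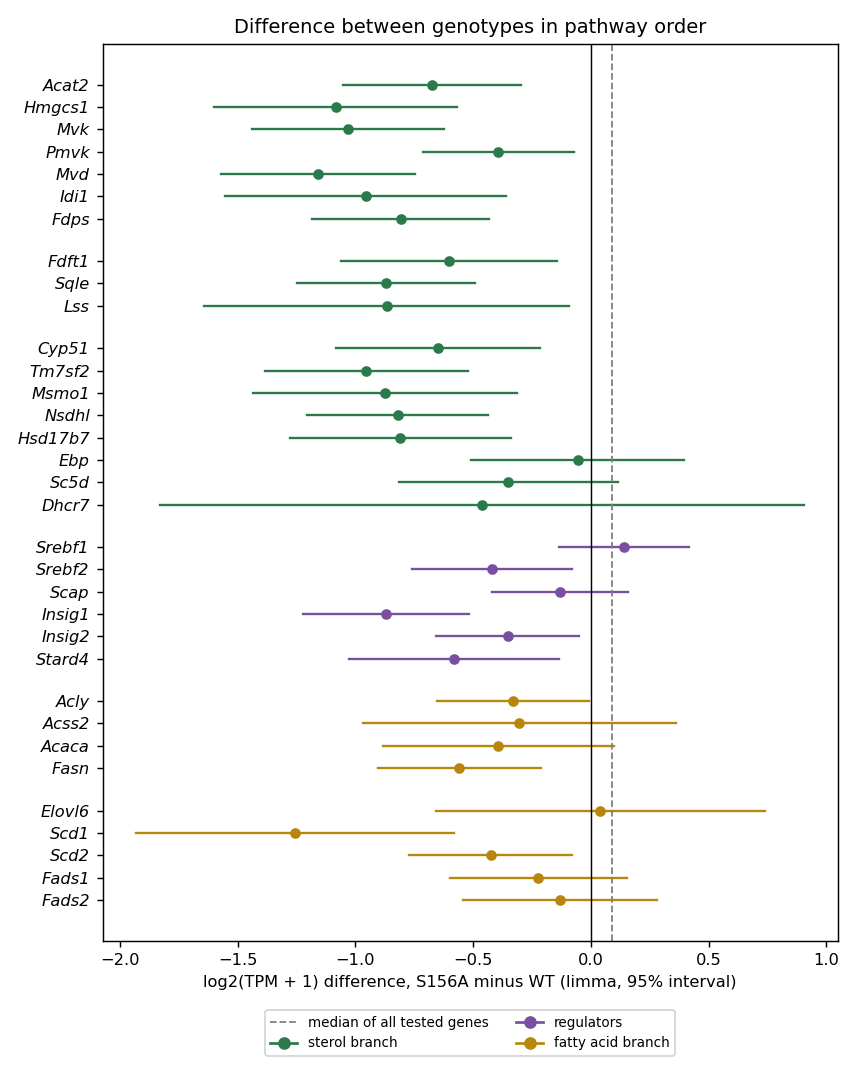
Log2(TPM + 1) difference between S156A and WT for each gene (x axis, point) with its 95% interval from limma (line), in pathway order, coloured by branch; the dashed line is the median of all tested genes, 0.09. Mvd and Hmgcs1 lead the sterol branch at -1.16 and -1.08, and Scd1 stands apart in the fatty acid branch at -1.26.

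Lists of neighbouring pathways were read the same way. Of 14 further SREBP target genes, 7 were lower and 0 higher at an unadjusted p under 0.05, with a median log2 difference of -0.41. Among all tested genes 5.5% were lower and 8.41% higher at that level. Acsl3, an acyl-CoA synthetase, was at 59.9, 66.0 and 64.5 TPM in WT and 37.7, 38.8 and 36.9 TPM in S156A (log2 difference -0.73, SE 0.10, limma adjusted p = 0.0602). Aacs, which activates acetoacetate for lipid synthesis, was at 77.3, 83.9 and 65.9 TPM in WT and 38.2, 44.3 and 37.4 TPM in S156A (log2 difference -0.90, SE 0.13, limma adjusted p = 0.0643). In both, S156A values lay below all WT values.

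Isoprenoid genes that draw on farnesyl diphosphate but do not make sterols had a summed level in S156A at 100% of WT. Their 13 genes had a median of 0.08, with 0 lower and 1 higher, and sums of 406, 377 and 409 TPM in WT and 389, 399 and 407 TPM in S156A. Of all tested genes 8.41% were higher, so 1 of 13 is near the background. That gene was Dhdds, of dolichol synthesis, with overlapping groups at 37.1, 30.2 and 30.7 TPM in WT and 36.3, 46.8 and 46.6 TPM in S156A (log2 difference 0.39, SE 0.15, limma adjusted p = 0.326), and its partner Nus1 was at 42.4, 41.1 and 42.1 TPM in WT and 32.2, 38.1 and 35.2 TPM in S156A (log2 difference -0.25, SE 0.11, limma adjusted p = 0.377). Zmpste24 and Coq2 had log2 differences of 0.27 and -0.23. With trimmed-mean scaling 2 were lower and 0 higher, and the count of higher genes was also 0 without WT replicate 2, WT replicate 3, S156A replicate 2 or S156A replicate 3.

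The 11 genes for SREBP cleavage and for sterol-triggered protein degradation had 0 lower and 0 higher, a median of 0.05 and adjusted p from 0.529 to 0.933. Erlin2, Mbtps1 (the site-1 protease that cuts SREBP) and Rnf145 had log2 differences of 0.18, 0.21 and -0.12. Of 19 tested genes of further fatty acid synthesis and elongation, 5 were lower and 1 higher, against 5.5% and 8.41% of all tested genes. Fads6, Fads3 and Elovl4 had log2 differences of -0.77, -0.42 and -0.48, and Hacd4, a dehydratase at low level, 0.92. The lower count was 1 or 2 without WT replicate 1, WT replicate 2 or S156A replicate 3.

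Genes that store, oxidise or move sterols summed to 115% of WT in S156A. Of 18, 6 were higher and 0 lower, against 8.41% and 5.5% of all tested genes, with a median of 0.31. Abca1, the sterol exporter, passed over all genes and rose from 17.4, 17.3 and 19.3 TPM in WT to 40.8, 53.1 and 42.9 TPM in S156A (log2 difference 1.29, SE 0.14, limma adjusted p = 0.0449). Abca1 was higher by 1.13 to 1.41 on the log2 scale in all 22 alternatives and under the threshold in 11 of them. Its adjusted p was 0.172 without WT replicate 1, 0.251 without WT replicate 2, and 0.0787, 0.169 and 0.197 without S156A replicate 1, 2 or 3, and it was 0.261 with the replicate number as a block. Abcg1, another exporter, was at 10.8, 11.4 and 10.4 TPM in WT and 16.4, 19.8 and 18.01 TPM in S156A, and Soat1, which esterifies cholesterol for storage, at 7.05, 7.89 and 7.57 TPM in WT and 11.7, 12.96 and 12.8 TPM in S156A (limma adjusted p = 0.134 and 0.172). Npc2, a lysosomal sterol carrier, had a log2 difference of 0.38. The higher count was 3 without WT replicate 2 or S156A replicate 1, and 3 higher and 2 lower with trimmed-mean scaling.

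**Figure D5:**
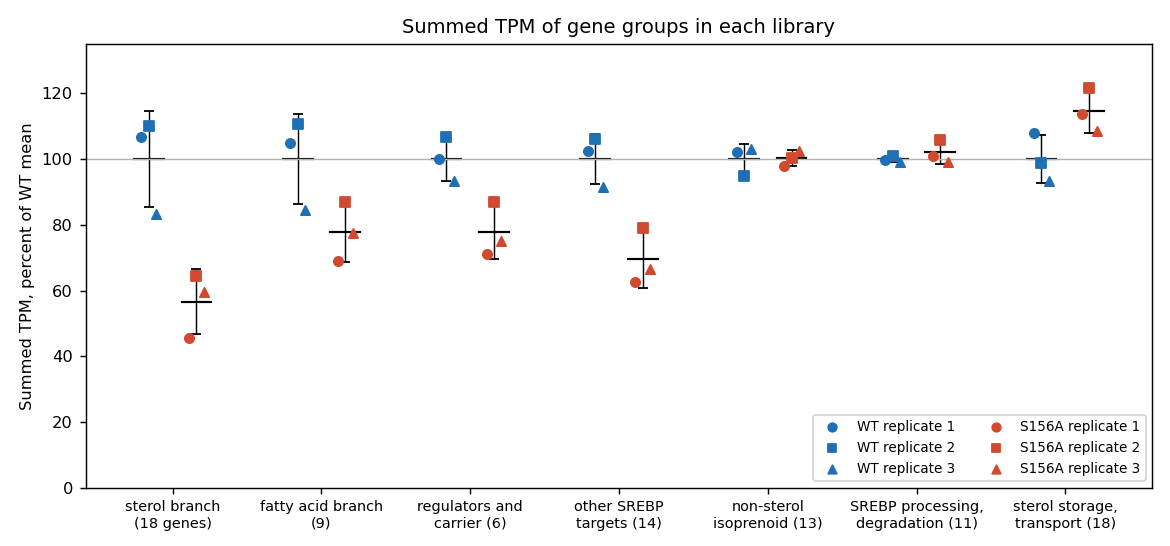
Summed TPM of 7 gene groups in each library (y axis, as percent of the WT mean), with mean (bar) and SD (whiskers, n = 3) per genotype (blue WT, red S156A, marker shape for the replicate number). The sterol branch lies at 56.6% of WT in S156A, while the non-sterol isoprenoid and SREBP processing groups lie at 100% and 102%.

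Markers of several cell types also differed between the genotypes. At an unadjusted p under 0.05, 5.5% of all tested genes were lower and 8.41% higher in S156A. Markers of maturing neurons were lower at an unadjusted p under 0.05 in 11 of 11 genes, with summed levels of 2267 to 2971 TPM in WT and 1353 to 1774 TPM in S156A. Of these 11, 5 passed over all genes, but 0 did without WT replicate 1, WT replicate 2 or any single S156A library, where 9 to 11 were lower at an unadjusted p under 0.05. Microglia markers were higher in 9 of 11, from sums of 127 to 220.1 TPM to 408 to 512 TPM. Astrocyte markers were higher in 4 and lower in 1 of 10, with sums of 1017 to 1101 TPM in WT and 1726 to 2567 TPM in S156A. The most abundant of them was Apoe, which microglia also express, and the other 9 summed to 463 to 519 TPM in WT and 532 to 710.1 TPM in S156A. Over all 10 astrocyte markers the log2 differences ran from -0.41 to 2.26, with a median of 0.45. Slc1a2, Slc1a3 and Aldh1l1, whose groups overlapped, had log2 differences of -0.03, 0.07 and -0.12. By the same measure, oligodendrocyte lineage markers were higher in 7 of 12 (305 to 341 TPM and 391 to 534 TPM), and radial glia and progenitor markers in 4 of 11 (1806 to 2090 TPM and 2113 to 2513 TPM). None of the markers in these 5 lists was at 0 in any library. Their part in the sterol result was not tested.

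Skeletal muscle transcripts were abundant in 2 libraries, WT replicate 3 and S156A replicate 1, at summed levels of 8663 and 8842 TPM for 12 muscle genes against 16.9 to 1093 TPM in the others. These were also the libraries lowest in sterol enzymes within their genotype: S156A replicate 1 was the lowest of 6 for 15 of the 18, and WT replicate 3 the lowest WT library for 16 of the 18. Without both, 15 of the 18 sterol enzymes were lower at an unadjusted p under 0.05, with a median log2 difference of -0.78, as were 3 fatty acid enzymes and 2 regulators. In that fit 6.28% of all tested genes were lower. With TPM rescaled after removal of the 12 muscle genes, 23 members were lower, as before. These genes held 8842 of 956226 annotated TPM in S156A replicate 1, where they were most abundant. Their removal could therefore hardly move other genes, and the unchanged count is no check on muscle tissue in the pools. The 4 Y-linked genes summed to 0.340 TPM in S156A replicate 1 and 28.7 to 65.0 TPM in the others. With the Y-linked level as a covariate, 13 sterol enzymes, 2 fatty acid enzymes and 1 regulator were lower, against 4.3% of all tested genes. The part of muscle RNA and of Y-linked level in the result was otherwise not tested. Estimated depth was 3.15 to 4.14 aligned gigabases per library.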

How the data were processed

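The deposited tables, 1 per library, came from StringTie, with StringTie 2.1.5, HISAT2 2.2.1 and Trim Galore 0.6.6 listed in the submitters' processing notes. Per the file headers they give FPKM, TPM (a signal scaled to transcript length and library) and coverage, the mean read depth per base. One coverage value, in S156A replicate 3, lies just below 0, so that deposited column was treated as a score. The sources used here give no annotation release, strand setting or filter. The notes name hg38, yet the rows carry mouse identifiers, and 0 of 33 members started within 1000 bases of their GRCm38 position, so coordinates are given as the files have them. Promoter windows are on GRCm38.p6 and were matched by symbol.

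Annotated rows were used, with rows sharing an identifier summed, and no column holds counts of reads. Depth was approximated by the commonest ratio of coverage to FPKM, and no counting interval can be given. TPM is a share, so abundant transcripts in a library lower all others. Genes averaging 1 TPM or more were tested on log2(TPM + 1), which understates changes of low genes, with limma 3.58.1 in R 4.3.3 (eBayes with trend, two-sided, no covariate, Benjamini-Hochberg adjustment, threshold 0.05). Unadjusted p in the text come from the same fit. Ratios were compared by exact permutation. On simulated data for S156A against WT (18893 genes, 50 changed at each size), limma recovered 1 of 50 at a log2 fold of 0.5, 26 at 1, 39 at 2 and 49 at 3. By unadjusted p the numbers were 36, 45, 48 and 50 of 50. The simulation gave 4 false calls.

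The members, lists and alternatives were chosen with earlier results of these data known. Members were all named. From each pathway list up to 4 genes with the smallest p were named, and some genes that this rule covers are not reported here. The sources used here do not say whether replicate numbers pair the libraries, and the main fit treated them as unpaired. Alternatives were FPKM, pseudocounts of 0.1 and 5, other filters and scalings, other variance models, covariates and libraries left out.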

Additional observations from a re-analysis of the deposited data

How the results depend on the processing

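The direction of the 33 members held in 714 of 726 combinations of a member and an alternative, and 29 members turned in none of them. Other filters, eBayes without trend, robust eBayes and the replicate block leave each log2 difference as it was. Those combinations could not turn, so the count overstates how stable the direction was. The log2 difference of Ebp turned to 0.016 with array weights, to 0.12 without WT replicate 3 and to 0.13 without both WT replicate 3 and S156A replicate 1. With single libraries left out Ebp ran from -0.181 to 0.124. The log2 difference of Dhcr7 turned to 0.063 without WT replicate 1 and ran from -0.975 to 0.063. The log2 difference of Fads2 turned to 0.011 without S156A replicate 1 and ran from -0.280 to 0.011. The log2 difference of Elovl6 turned to -0.054 with a trimmed mean of M values, -0.029 with quantile normalization, -0.0145 with array weights, -0.00775 with the Y-linked covariate, -0.00173 without WT replicate 2, -0.26 without WT replicate 3 and -0.23 without both libraries, and ran from -0.259 to 0.378 with single libraries left out. The cause was not tested. In place of 0 members past the threshold over all genes, 2 passed with a trimmed mean of M values (Mvd and Insig1; 75 genes in all, against 30), 1 with quantile normalization (Mvd; 52 in all), 9 with array weights (309 in all, 182 of them lower), 1 with assembled loci (Mvk, chosen after the data were seen; 34 in all), and 0 to 2 with 1 library left out (Mvd and Mvk without WT replicate 3, of 70 in all). The count of members lower at an unadjusted p under 0.05 ran from 15 without WT replicate 2 to 25 without WT replicate 3, around 23, and was 16 with the Y-linked covariate. The shares of all tested genes lower in these fits were 3.4%, 6.58%, 5.5% and 4.3%. Of the neighbouring lists, lower genes of further fatty acid synthesis numbered 3 in place of 5 without the variance trend, with the Y-linked covariate or with the replicate block, and higher sterol storage genes 3 in place of 6 with the Y-linked covariate. The branch medians ran from -0.93 to -0.69 for sterol enzymes, -0.48 to -0.22 for fatty acid enzymes and -0.48 to -0.31 for regulators. Same-numbered libraries did not deviate together (correlations of -0.548, 0.195 and -0.412 over genes). The correlation of WT replicate 3 with S156A replicate 1 was 0.648. Such values cannot show whether same-numbered libraries share more than a number. With a replicate block 21 members were lower at an unadjusted p under 0.05, against 4.33% of all tested genes (818 lower). With the block 0 genes passed over all genes, and 1880 were under an unadjusted p of 0.05 in either direction. No alternative could supply read counts, so the depth behind single values is unknown.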
